A study of Bos taurus with 11 samples.

Results

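The enzymes that break down fatty acids in mitochondria were examined in the uterine lining of dairy cows shortly after calving. The set was defined as 10 genes, CPT1A, CPT2, ACADM, ACADL, ACADVL, ACADS, HADHA, HADHB, ECHS1 and ETFDH, and a gene counted as measured where the platform annotation gave a probe set its symbol alone. By this rule 8 genes with 9 probe sets were found, of 9155 genes and 24016 probe sets in all. CPT1A and ETFDH had no such probe set and were not analysed here. ACADL had 2 probe sets and was represented by the one with the higher mean over the 11 arrays, and each of the other genes had 1.

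Endometrium was taken after slaughter, 14 ± 0.4 days postpartum (error as the labels give it), from Holstein-Friesian cows that had calved before (parity 4.7 on average), and RNA of each cow was hybridised to 1 Affymetrix bovine array. The 6 cows in severe negative energy balance were fed 25 kg of silage with 4 kg of concentrate daily and were milked 3 times a day. The 5 cows in mild negative energy balance had silage without limit and 8 kg of concentrate daily and were milked 1 time a day. Both regimes started on day 2 postpartum, and animals had been allocated to them at random within blocks. Feed allowance and milking frequency differed together, so their effects cannot be told apart. The tissue was a bulk sample, in which fewer cells of a type and less RNA per cell cannot be told apart either.

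In negative energy balance a cow draws on body fat, and fatty acids reach the tissues through the blood. Inside a cell a fatty acid is joined to coenzyme A, passed into the mitochondrion by the carnitine shuttle, and then shortened in repeated rounds of 4 reactions: a dehydrogenation, a hydration, another dehydrogenation and a thiolytic cleavage that releases acetyl-CoA. Electrons of the opening dehydrogenation leave through electron transfer flavoprotein. Many genes of this route are targets of the fatty acid receptors of the PPAR family.

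None of the 8 enzymes differed between severe and mild cows beyond the spread between animals. Differences ran from -0.13 log2 units for ECHS1 to 0.16 for ACADVL, where 1 log2 unit is a 2-fold difference. With the limma test adjusted by Benjamini-Hochberg over all 24016 probe sets, 0 of 8 passed at an adjusted p under 0.05 (adjusted p between 0.548 and 0.918), and 0 of 8 had an unadjusted p under 0.05. The exact two-sided permutation test over the 462 splits of the cows gave 0 of 8 as well, with p between 0.171 and 0.712. Over the 24016 probe sets limma called 0 (0%) after adjustment and 12.8% at an unadjusted p under 0.05 (6.97% higher and 5.88% lower in severe cows; 52.2% had a difference below 0), and over the 9155 genes with 1 probe set each the unadjusted share was 15.9%. After a second quantile normalization the probe sets at an unadjusted p under 0.05 were 1590 higher and 1622 lower, against 1673 and 1412 in the values as deposited. In all 8 enzymes the values of the groups overlapped, as they did in all but 1.19% of the 9155 genes. In severe cows 6 of the 8 enzymes had the higher mean on their main probe set, against 48.9% of all genes. The median difference was 0.071 log2 units, against -0.0038 over all genes. The 6 include ACADL, whose other probe set differed by -0.20, and HADHA, at 0.024, which was -0.023 without mild 5.

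The intervals bound how large a difference could have gone unseen. All 8 of the 95% intervals held 0 and all 8 lay within a 1.5-fold change in either direction. On these main probe sets the lowest bound was a severe to mild ratio of 0.762, for ECHS1, and the highest was 1.32, for ACADVL. The interval of the other ACADL probe set reached lower, from 0.722 to 1.05. RMA compresses differences, so these bounds apply to the array signal and not to transcript numbers.

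**Figure D1:**
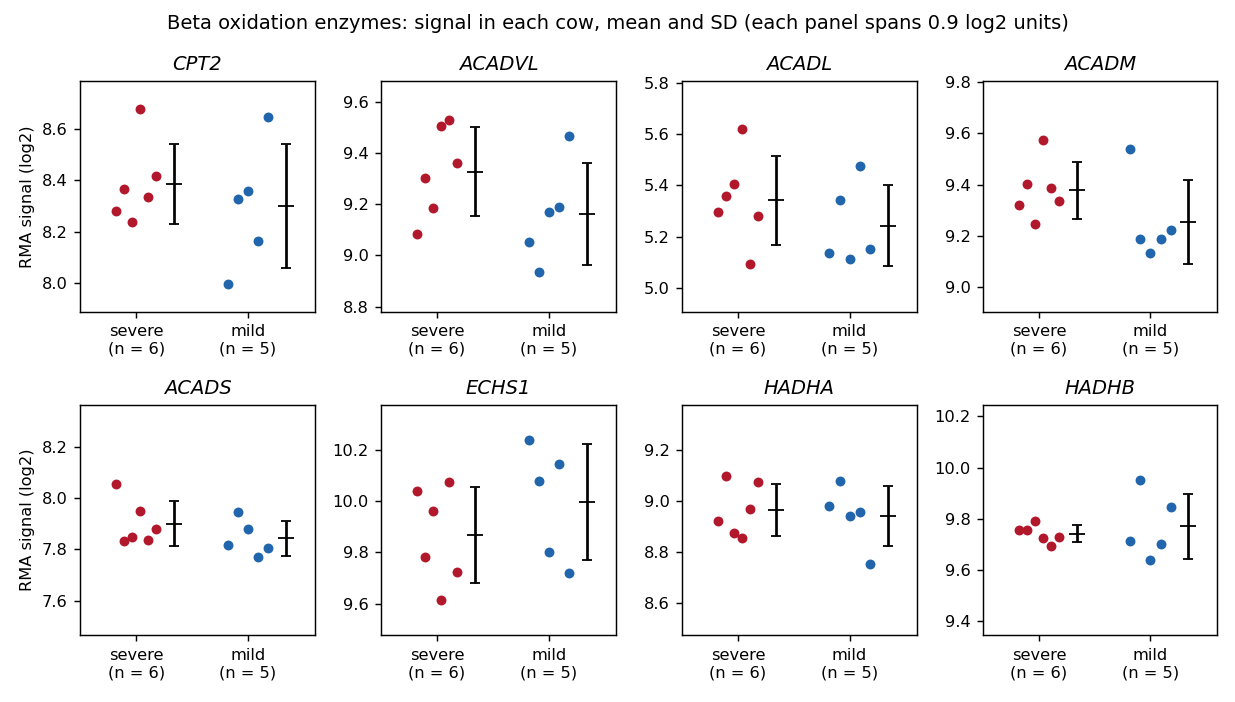
RMA signal (log2, vertical axis) of the 8 enzymes in each cow, severe cows in red on the left and mild cows in blue on the right of each panel, with the group mean and SD as a black bar; each panel spans the same 0.9 log2 units. In every panel the groups overlap, and the means differ by no more than 0.16 log2 units.

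At the entrance to the mitochondrial matrix stands CPT2, the inner membrane enzyme that turns acylcarnitines back into acyl-CoA. Its signal in severe cows had a lowest value of 8.24, a median of 8.35 and a highest value of 8.68, and the mild cows were at 8.00, 8.33, 8.36, 8.16 and 8.65. Severe 4 and mild 5 were the highest of their groups and lay close to each other, and mild 1 was the lowest cow. Severe cows averaged 8.38 ± 0.16 (SD, n = 6) and mild cows 8.30 ± 0.24 (SD, n = 5). The log2 difference was 0.086 ± 0.12 (SE), with a limma adjusted p of 0.790, and it was 0.010 without mild 1, 0.027 without severe 4, 0.052 without mild 4 and 0.17 without mild 5.

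The acyl-CoA dehydrogenases carry out the opening step of each round, and the members of the family prefer chains of different length. ACADVL, the very long chain enzyme, had the largest difference of the set. Its values in severe cows had a lowest of 9.08, a median of 9.33 and a highest of 9.53, and mild cows were at 9.05, 8.93, 9.17, 9.19 and 9.47. In 5 of 6 severe cows the value was above the mild mean, but mild 5 lay above 4 of the severe cows. Severe cows averaged 9.33 ± 0.17 (SD, n = 6) and mild cows 9.16 ± 0.20 (SD, n = 5), a difference of 0.16 ± 0.11 (SE) and a 1.12-fold ratio (limma adjusted p = 0.548). It was 0.068 without severe 5 and mild 2, 0.11 without mild 2 alone and 0.24 without mild 5.

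ACADM, the medium chain dehydrogenase, had values with a lowest of 9.25, a median of 9.36 and a highest of 9.58 in severe cows. Mild cows were at 9.54, 9.19, 9.13, 9.19 and 9.22, so that 4 of the 5 lay below the lowest severe cow and mild 1 above all severe cows but 1. Severe cows averaged 9.38 ± 0.11 (SD, n = 6) and mild cows 9.25 ± 0.16 (SD, n = 5), which differ by 0.12 ± 0.087 log2 units (SE; limma adjusted p = 0.575). Leaving out mild 1 gave a difference of 0.19 with an unadjusted p of 0.0208, and across all the alternatives tried the lowest adjusted p of ACADM was 0.309.

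ACADS, the short chain dehydrogenase, was tightly grouped. Severe cows had a lowest value of 7.83, a median of 7.86 and a highest of 8.06, and mild cows were at 7.82, 7.94, 7.88, 7.77 and 7.80. Severe 1 was highest, and the other severe cows fell within or just above the mild range. The SDs were 0.088 in severe and 0.069 in mild cows, and the log2 difference was 0.057 ± 0.065 (SE; limma adjusted p = 0.744). Without severe 1 it was 0.026.

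ACADL, the long chain dehydrogenase, was the 1 enzyme with a dim signal. Dim is used here for a mean below 5.52, under which 40% of all probe sets fall and where differences are compressed. On its main probe set severe cows had a lowest value of 5.09, a median of 5.33 and a highest of 5.62, and mild cows were at 5.14, 5.34, 5.11, 5.47 and 5.15. The log2 difference was 0.099 ± 0.10 (SE; limma adjusted p = 0.711), and it was 0.044 without severe 4, 0.15 without severe 5 and 0.16 without mild 4. The other ACADL probe set had a severe mean of 3.85 ± 0.15 (SD, n = 6) and a mild mean of 4.04 ± 0.28 (SD, n = 5), a difference of -0.20 ± 0.12 (SE; limma adjusted p = 0.526). The probe sets therefore had opposite signs, both were dim, and no direction is given for ACADL.

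The hydration and the steps after it are shared between ECHS1, the matrix hydratase of short chains, and the trifunctional protein of the inner membrane, whose alpha and beta subunits are HADHA and HADHB. ECHS1 had the largest difference below 0. Severe cows had a lowest value of 9.61, a median of 9.87 and a highest of 10.08, and mild cows were at 10.24, 10.08, 9.80, 10.14 and 9.72. Of the severe cows 2 of 6 lay above the mild mean, and the ranges covered much the same span. Severe cows averaged 9.87 ± 0.19 (SD, n = 6) and mild cows 9.996 ± 0.23 (SD, n = 5), and the log2 difference was -0.13 ± 0.12 (SE; limma adjusted p = 0.673). It was -0.070 without mild 1, -0.080 without severe 4 and -0.20 without mild 5.

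HADHA, which holds the long chain hydratase and hydroxyacyl-CoA dehydrogenase activities, had severe values with a lowest of 8.85, a median of 8.94 and a highest of 9.10. Mild cows were at 8.98, 9.08, 8.94, 8.96 and 8.75, and severe cows were split 3 and 3 around the mild mean. The log2 difference was 0.024 ± 0.076 (SE; limma adjusted p = 0.918), and its sign changed to -0.023 without mild 5.

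HADHB, the thiolase subunit, had severe values with a lowest of 9.69, a median of 9.74 and a highest of 9.79, and mild cows were at 9.71, 9.95, 9.64, 9.70 and 9.85. The severe cows lay inside the range of the mild cows. The SD was 0.033 in severe and 0.13 in mild cows, and the means of 9.74 and 9.77 differed by -0.028 ± 0.067 log2 units (SE; limma adjusted p = 0.892). Without mild 2 the difference was 0.017. The subunits form 1 complex. Over the 11 cows HADHA and HADHB had a Pearson r of 0.025 and a Spearman rho of 0 (permutation p = 0.943 and 1, adjusted p = 0.955 and 1 over the 28 pairs of enzymes). HADHA also varied little, with an SD of 0.10 in severe and 0.12 in mild cows. With such small spreads r says little about whether the subunits vary together.

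**Figure D2:**
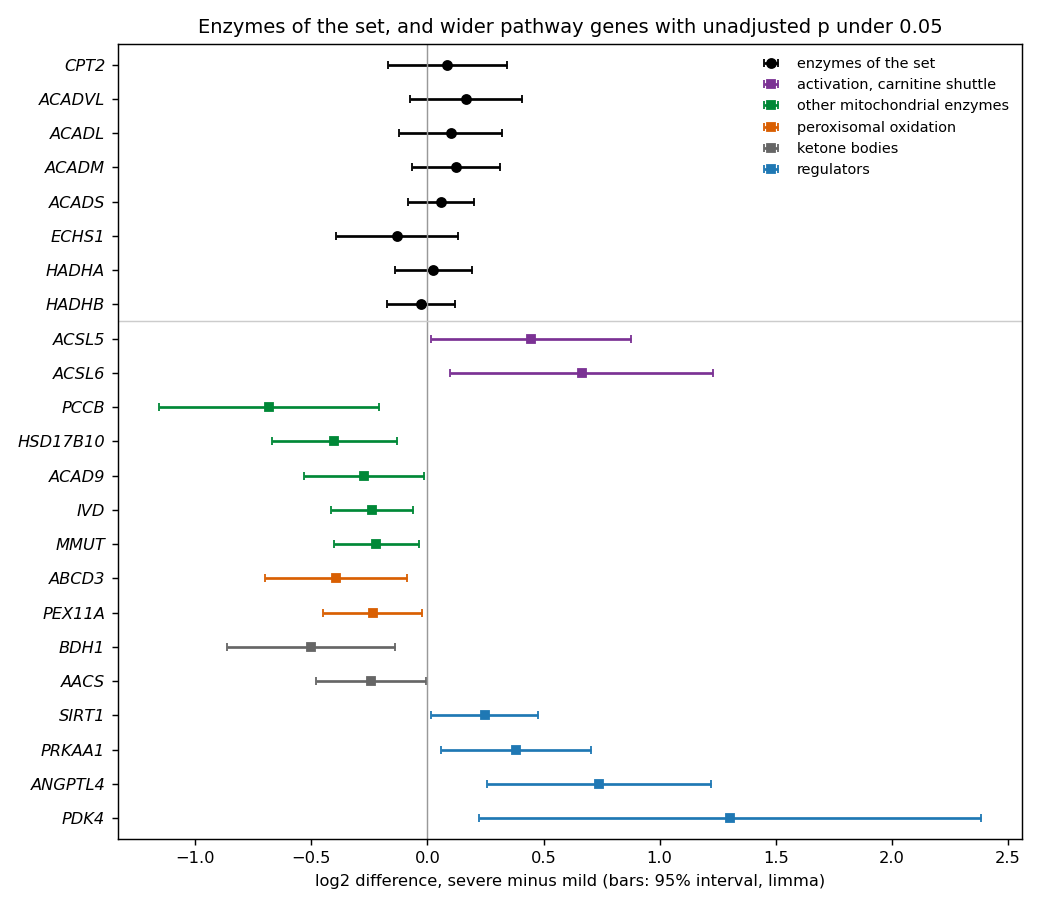
Log2 difference, severe minus mild (horizontal axis), with its 95% interval from limma, for the 8 enzymes (black circles, above the grey line) and for the 15 genes of the wider pathway with an unadjusted p under 0.05 (coloured squares, by list). All 8 intervals of the enzymes cross 0 and end between -0.39 and 0.41; the wider genes shown were picked by their p, and none passed adjustment.

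Pairs of the enzymes correlated in both directions across the animals. Of 28 pairs, 17 had a Pearson r above 0 over the 11 cows, with a median of 0.037, and after the group means were subtracted 13 did, with a median of -0.0096. All pairs come from the same arrays and share their normalization. The correlations had been planned as a description with no p, and a permutation test of 100000 resamples was run outside that plan. With adjustment over the 28 pairs 1 pair passed it, and the checks of this pair given below use the same 11 cows. CPT2 and ECHS1 ran opposite to each other, with a Pearson r of -0.87 (p = 4e-05, adjusted p = 0.00112) and a Spearman rho of -0.92 (permutation p = 0.00026, adjusted p = 0.00728). Mild 1 had the lowest CPT2, 8.00, and the highest ECHS1, 10.24. Severe 4 had the highest CPT2, 8.68, and the lowest ECHS1, 9.61.

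The relation held within the severe cows, where r was -0.82, and with group means subtracted r was -0.87. Without the 2 cows farthest from the median of CPT2 it was -0.75, and after a second quantile normalization -0.73 (permutation p = 0.00622). Among 7134 genes that were not dim, ECHS1 itself included, 6 had an r with CPT2 as low as that of ECHS1 or lower, a share of 0.0841%. Counted in the same way from ECHS1, with CPT2 included, 4 genes had an r as low, a share of 0.0561%. The next pair by r, CPT2 with ACADVL, had an r of 0.68 and a rho of 0.65 (permutation p = 0.0199 and 0.0334, adjusted p = 0.279 and 0.467), and r was 0.52 without the 2 farthest cows. ACADVL and ECHS1 had an r of -0.62 and a rho of -0.60 (permutation p = 0.0470 and 0.0570, adjusted p = 0.439 and 0.532). Severe 4 also had the highest neutrophil marker score of all cows, 2.66, and the lowest 3' minus 5' difference of control transcripts, -0.44, and the part of either in these values was not tested.

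**Figure D3:**
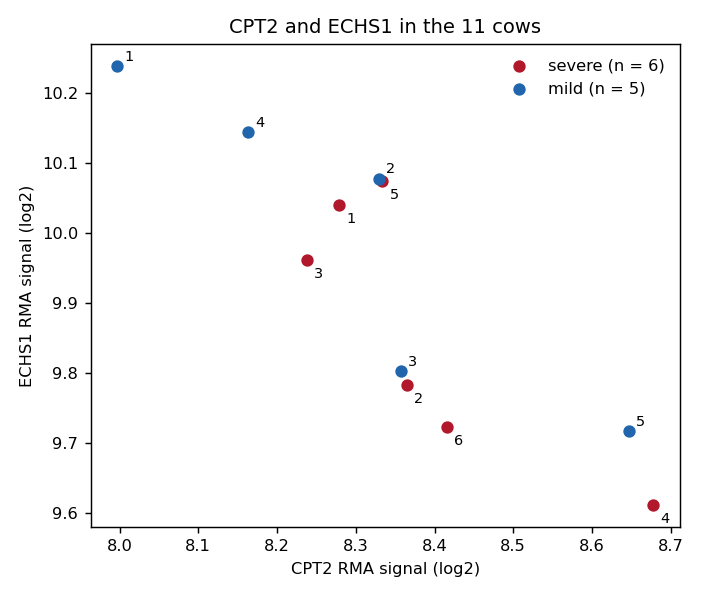
RMA signal (log2) of ECHS1 (vertical axis) against CPT2 (horizontal axis), 1 point per cow, severe in red and mild in blue, with the number of the cow in its group beside it. Points run from mild 1 at the upper left to severe 4 at the lower right, and both groups lie along the same band.

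The mean profile of the 8 enzymes, each centred on its mean over all cows, spanned little. It ran from -0.022 to 0.10 in severe cows, with a median of 0.015, and from -0.086 to 0.014 in mild cows, with a median of -0.017. Severe 4 was highest and mild 3 lowest. Of 7128 genes outside the set that were not dim, the 5 with the highest Pearson r with this profile over the 11 cows were MAP3K6, a kinase (0.90), SLC16A3, a lactate transporter (0.89), KHNYN (0.88), MPST, a mercaptopyruvate sulfurtransferase (0.87), and INVS (0.86). These values describe the 11 arrays and were picked as the highest of all.

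The wider route of fatty acid oxidation was followed through 5 lists holding 81 genes, of which 66 were measured. Limma, adjusted over all probe sets, called 0 of the 66 (lowest adjusted p = 0.301). The unadjusted p was under 0.05 for 15 of them, 6 higher and 9 lower in severe cows, which is 22.7% against 15.9% of all genes, of which 8.45% were higher and 7.46% lower. Without mild 4 these counts were 3 and 5, and without severe 5 and mild 2 they were 4 and 5. The median difference over the 66 was -0.046 log2 units. The lists were chosen with earlier results of these data known, and nothing below is read as particular to a list.

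**Figure D4:**
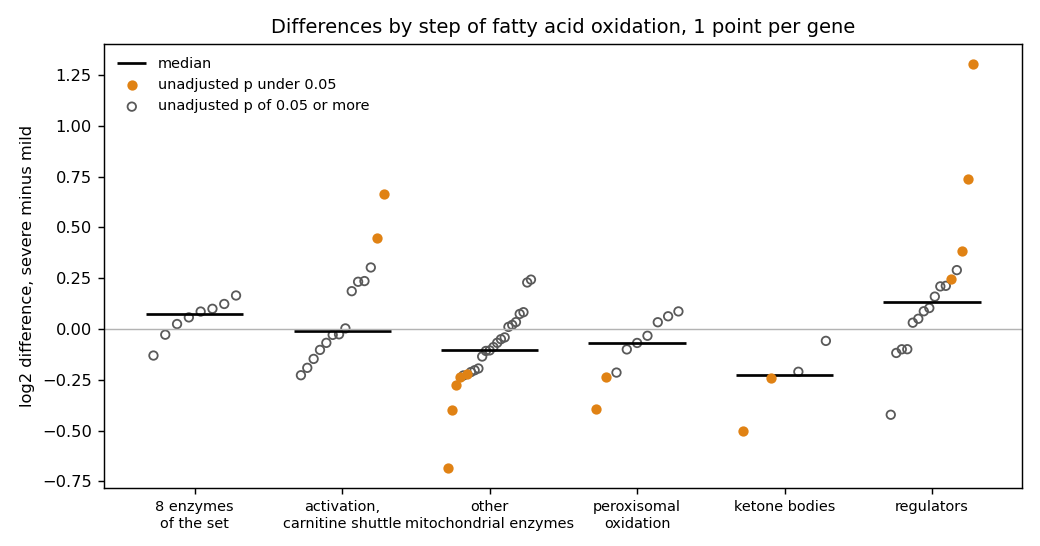
Log2 difference, severe minus mild (vertical axis), of every measured gene in the set of 8 enzymes and in the 5 wider lists (horizontal axis), 1 point per gene, filled where the unadjusted limma p was under 0.05, with the median of each list as a black line. The 8 enzymes lie between -0.13 and 0.16, while points of the other lists reach from -0.68 (PCCB) to 1.30 (PDK4).

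Fatty acid activation and the carnitine shuttle come before the rounds of oxidation, and CPT2 of the set is itself part of the shuttle. Of 16 other genes listed here 14 were measured, 7 higher and 7 lower, with a median of -0.012. At an unadjusted p under 0.05, 2 were higher and 0 lower. ACSL5, an acyl-CoA synthetase, had values with a lowest of 8.56, a median of 9.10 and a highest of 9.68 in severe cows, and of 8.87, 8.92, 8.87, 8.46 and 8.18 in mild cows. Severe 1 lay below 3 of the mild cows, and severe 3 below 1, and the log2 difference was 0.45 ± 0.20 (SE; limma adjusted p = 0.377). ACSL6, of the same family, was dim in both groups, with a severe mean of 4.90 ± 0.60 (SD, n = 6), a mild mean of 4.23 ± 0.24 (SD, n = 5) and a difference of 0.66 ± 0.26 (SE; limma adjusted p = 0.340). SLC25A20, the carrier that exchanges acylcarnitine for carnitine, differed by 0.19 ± 0.089 (SE) and its other probe set by 0.14 ± 0.076, and CRAT, carnitine acetyltransferase, by 0.30 ± 0.16 (SE), with adjusted p of 0.412 for SLC25A20 and 0.450 for CRAT. CPT1B, the muscle form of the outer membrane transferase, was at 5.60 in severe and 5.83 in mild cows, a difference of -0.23 ± 0.12 (SE; adjusted p = 0.467).

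Of 24 other mitochondrial enzymes of acyl-CoA breakdown and electron transfer, 23 were measured, 7 higher and 16 lower in severe cows, with a median of -0.11. At an unadjusted p under 0.05, 0 were higher and 5 lower: HSD17B10, PCCB, IVD, MMUT and ACAD9. HSD17B10 is a dehydrogenase of short hydroxyacyl-CoA chains, straight and branched, and takes part in mitochondrial tRNA processing. IVD acts in leucine breakdown, PCCB and MMUT in the breakdown of propionate, and ACAD9, a long chain acyl-CoA dehydrogenase, also in the assembly of respiratory complex I.

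HSD17B10 had values with a lowest of 9.01, a median of 9.38 and a highest of 9.54 in severe cows, against 9.81, 9.90, 9.77, 9.78 and 9.33 in mild cows. Mild 5 was the mild cow that lay within the severe range. The log2 difference was -0.40 ± 0.12 (SE; limma adjusted p = 0.306). PCCB, a subunit of propionyl-CoA carboxylase, had severe values with a lowest of 6.85, a median of 7.07 and a highest of 7.76, and mild values of 7.58, 8.55, 7.95, 7.68 and 7.78. Severe 1 and severe 3 lay within the mild range, and the difference was -0.68 ± 0.22 (SE; limma adjusted p = 0.307). IVD differed by -0.24 ± 0.081 (adjusted p = 0.310), MMUT by -0.22 ± 0.084 (adjusted p = 0.335) and ACAD9 by -0.27 ± 0.12 (SE; adjusted p = 0.368). The other ACAD9 probe set differed by -0.16 ± 0.18 (SE, limma unadjusted p = 0.407).

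Other enzymes of the list work directly beside the set. HADH, the matrix dehydrogenase that follows ECHS1, differed by -0.11 ± 0.082 (SE), and ACAA2, the matrix thiolase, by 0.074 ± 0.071. ETFA and ETFB, the subunits of electron transfer flavoprotein, differed by -0.19 ± 0.14 and -0.14 ± 0.063 (SE). The auxiliary enzyme of unsaturated chains DECR1 differed by -0.23 ± 0.21 (SE). The adjusted p of these 5 ran from 0.394 for ETFB to 0.690 for ACAA2.

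Peroxisomes oxidise very long and branched chains, and 9 of 14 listed genes were measured, 3 higher and 6 lower, with a median of -0.069. At an unadjusted p under 0.05, 0 were higher and 2 lower. ABCD3, a peroxisomal membrane transporter, had a severe mean of 7.45 ± 0.28 (SD, n = 6) and a mild mean of 7.85 ± 0.20 (SD, n = 5), which differ by -0.39 ± 0.14 log2 units (SE; limma adjusted p = 0.319). PEX11A, which takes part in peroxisome division, differed by -0.24 ± 0.098 (adjusted p = 0.358), AMACR, a racemase of branched chains, by -0.21 ± 0.11 (adjusted p = 0.449) and ACAA1, the peroxisomal thiolase, by -0.10 ± 0.070 (SE; adjusted p = 0.568).

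Ketone bodies are made from the acetyl-CoA of fatty acid oxidation, mainly in liver, and are used as fuel elsewhere. Of 7 listed genes 4 were measured, all lower in severe cows, with a median of -0.23, and 2 had an unadjusted p under 0.05. BDH1, 3-hydroxybutyrate dehydrogenase, was dim, with a severe mean of 4.93 ± 0.28 (SD, n = 6), a mild mean of 5.44 ± 0.32 (SD, n = 5) and a difference of -0.50 ± 0.17 (SE; limma adjusted p = 0.308). AACS, which activates acetoacetate in the cytosol, differed by -0.24 ± 0.11 (SE; limma adjusted p = 0.381). Its other probe set differed by -0.145 ± 0.098 (SE, limma unadjusted p = 0.163). ACAT1, the acetoacetyl-CoA thiolase, differed by -0.21 ± 0.12 (adjusted p = 0.482), and BDH2 by -0.058 ± 0.18 (SE; adjusted p = 0.917).

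Of 20 regulators and PPAR targets 16 were measured, 12 higher and 4 lower, with a median of 0.13. At an unadjusted p under 0.05, 4 were higher and 0 lower: ANGPTL4, PDK4, PRKAA1 and SIRT1. PDK4, a kinase that shuts off pyruvate dehydrogenase when fat is burned, had values with a lowest of 10.17, a median of 10.66 and a highest of 11.39 in severe cows, against 10.72, 7.41, 9.76, 9.03 and 10.23 in mild cows. Mild 1 and mild 5 lay within the severe range, and mild 2 far below the other mild cows. The log2 difference was 1.30 ± 0.49 (SE; limma adjusted p = 0.335), its other probe sets were at 1.38 and 1.66, and without mild 2 it was 0.80.

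ANGPTL4, a secreted inhibitor of lipoprotein lipase, had severe values with a lowest of 7.56, a median of 8.00 and a highest of 8.52, and mild values of 7.62, 6.67, 6.86, 7.57 and 7.60. Severe 1 was the severe cow below the highest mild cow. The difference was 0.74 ± 0.22 (SE; limma adjusted p = 0.301). PRKAA1, a catalytic subunit of AMP-activated kinase, differed by 0.38 ± 0.15 (adjusted p = 0.339), and SIRT1, a deacetylase, by 0.25 ± 0.11 (SE; adjusted p = 0.368), its other probe set being at 0.097. The PPAR receptors themselves had no unadjusted limma p under 0.05. PPARA and PPARG were dim, at 3.90 and 5.05 in severe cows and 4.00 and 5.15 in mild cows. The other PPARA probe set, also dim, differed by -0.21. PPARD differed by 0.21 ± 0.12 (SE, limma adjusted p = 0.474), with its other probe sets, both dim, at -0.15 and -0.16.

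Values of the arrays as a whole bear on these results. The median signal was 6.20 on each array, and pairs of arrays correlated with an r between 0.948 and 0.991. The 3' minus 5' difference of 3 bovine control transcripts had a severe mean of -0.28 ± 0.11 (SD, n = 6) and a mild mean of -0.22 ± 0.14 (SD, n = 5; exact two-sided permutation p = 0.418). Of 15 epithelial markers 3 were dim, KRT8, ESR1 and SPINT1. In severe cows 5 of the 15 were higher and 10 lower, with a median difference of -0.084, and 2 were lower at an unadjusted p under 0.05, CLDN10 (-0.997) and ESR1 (-0.61), while EPCAM averaged 10.33 in severe and 10.34 in mild cows. Of 10 stromal and 7 smooth muscle markers 0 were dim. Smooth muscle markers had a median difference of -0.28, with 6 lower, 1 higher (MYH11) and 0 at an unadjusted p under 0.05, and stromal markers one of 0.023, with 1 lower and 1 higher at that threshold. Of 7 endothelial markers 1 was dim. Of 4 measured genes of liver, a tissue that should be absent, APOB alone was dim. ALB averaged 10.21 in severe and 10.31 in mild cows. The log2 difference was -0.68 for APOA1 and 1.07 for TTR (limma adjusted p = 0.386 and 0.474).

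Leukocyte marker lists were higher in severe cows. For each of the 6 neutrophil markers on the array the groups did not overlap, severe being higher, and 1 was dim. At an unadjusted p under 0.05, 4 of 8 macrophage, 9 of 11 T and NK cell and 4 of 4 B and plasma cell markers were higher and 0 lower. Over all 9155 genes 8.45% were higher at that threshold, and in 1.19% the groups did not overlap in either direction. After adjustment 0 of these markers passed (lowest limma adjusted p = 0.215, for CXCR1). The neutrophil score, the mean centred log2 value of the list, ran from -0.12 to 2.66 in severe and from -2.13 to -0.71 in mild cows. Macrophage scores ran from -0.84 to 1.31 in severe and from -1.23 to 0.19 in mild cows, T and NK cell scores from -0.20 to 0.97 against -0.85 to 0.069, and B and plasma cell scores from -0.99 to 2.08 against -1.48 to 0.60. Epithelial scores ran from -0.83 in severe 5 to 0.37 in severe cows and from -0.27 to 0.40 in mild cows. Stromal scores ran from -0.13 to 0.21 against -0.37 to 0.27, smooth muscle scores from -0.80 to 0.38 against -0.50 to 0.55, and endothelial scores from -0.26 to 0.28 against -0.34 to 0.18. The part of neutrophils in the differences of enzymes and wider genes cannot be told apart from the groups, since their score does not overlap. Scores of the other cell types overlapped between the groups. Of these the epithelial score alone entered a fit, as a covariate, and that fit does not test the part of epithelium. The part of the other cell types was not tested. With the neutrophil score as a covariate, the differences of ACADVL, ACADM and ECHS1 were -0.17, -0.0055 and 0.024, all with the sign turned, and with the epithelial score they were 0.14, 0.13 and -0.16.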

How the data were processed

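RMA was named in the submitters' processing notes, and the authors deposited its output as log2 values per probe set, a method that corrects background, normalizes by quantiles and combines probes. Its version and further filters are not stated in the sources at hand. The log2 scale was read from the values, which run from 2.63 to 14.57; since every array has the same median over the table, a shift of the whole transcriptome would go unseen. Other quantiles differed between arrays, the 90th percentile of the tested probe sets running from 9.13 to 9.24. Whether a further step, such as scaling to the equal median, followed RMA is not stated. An array has no read depth, and the number of arrays limits the precision. Of 24128 probe sets, 112 controls were left out. The platform annotation of 2016 gave 13292 of the rest a single symbol and 86 several, and it did not list 10638. By Entrez number 13263 probe sets matched a RefSeq gene table, used for names, which renamed 0.

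The groups were compared with limma 3.58.1 under R 4.3.3 (lmFit and eBayes, two-sided, without covariates), and p was adjusted by Benjamini-Hochberg over 24016 probe sets. In data simulated with the spread of these probe sets, limma recovered 46% of changes of 0.5 log2 units and 84% of changes of 1. In the measured data 0 of 24016 probe sets passed adjustment (lowest limma adjusted p = 0.177). S100A8, with a log2 difference of 3.24, had a limma adjusted p of 0.248. The simulated shares are therefore not read as the power of this comparison. Single values were also compared by an exact permutation test. Cow numbers were given in accession order and are names only. Allocation blocks and array batches were not known for the single cows, so neither entered a fit. Each cow gave 1 array. The members and lists were chosen with earlier results of these data known. Named genes are all members, up to 4 genes of each wider list with the smallest p, and the 5 genes most similar to the members' profile. ACAD9, CPT1B, the PPAR receptors and the enzymes directly beside the set were added after their values were seen. Alternatives were a filter on the dimmest 40%, a second quantile normalization, a common median, trended and robust eBayes, weights per array, each cow left out, severe 5 and mild 2 left out together, other choices of probe set, and the neutrophil score, the epithelial score or the 3' minus 5' difference as a covariate. Figures were drawn in Python 3.11.15 (matplotlib 3.10.9).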

Additional observations from a re-analysis of the deposited data

Results flagged for a closer look

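Among 58 groups of values examined (8 enzymes and 21 named genes of the wider lists, in severe and in mild cows), 3 held a cow farther from the rest than Dixon's 95% limit allows. Chance flags about 1 in 20 such groups, or 2.9 here. ACADM was 9.54 in mild 1, against 9.22 in the next mild cow, and its log2 difference was 0.12 with and 0.19 without that cow. HSD17B10 was 9.33 in mild 5, the lowest of its group, and its difference was -0.40 with and -0.50 without that cow. ABCD3 was 8.19 in mild 2, the highest of its group, and its difference was -0.39 with and -0.31 without that cow.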

How the results depend on the processing

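None of the alternatives brought any of the 8 enzymes past an adjusted p under 0.05: of 175 values, 162 kept direction and side of the threshold, 13 changed sign, and the lowest adjusted p was 0.295. Of 460 values for the 21 named genes of the wider lists, 449 did so and 11 changed sign, with a lowest adjusted p of 0.142. A second quantile normalization turned HADHA to -0.0093 and array weights turned HADHB to 0.013. With each cow left out in turn HADHA ran from -0.023 to 0.058 (-0.0022 without severe 2), HADHB from -0.061 to 0.017 and BDH2 from -0.16 to 0.070 (0.012 without severe 5). Without severe 5 and mild 2 together HADHB was 0.027 and 5 wider genes were lower. ACADL was -0.049 as the mean of its probe sets and -0.20 on the one with the larger spread.

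The neutrophil score does not overlap between the groups, so as a covariate it cannot be separated from them, and it moved differences both ways. BDH1 grew to -1.08 and SIRT1 to 0.58 with it (adjusted p = 0.913 for both), and the differences that changed sign were -0.081 for CPT2, -0.0055 for ACADM, -0.17 for ACADVL, 0.11 for HADHB, 0.024 for ECHS1, -0.31 for ACSL6, -0.069 for ACSL5, -0.038 for SLC25A20, -0.28 for CRAT, 0.14 for PCCB, 0.058 for PEX11A, 0.033 for AMACR, 0.27 for ACAT1 and 0.10 for BDH2. The median over the enzymes was then 0.021, and 2 wider genes were lower and 3 higher at an unadjusted p under 0.05; the cause was not tested.

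The number of enzymes higher at an unadjusted p under 0.05 was 1 with array weights (ACADM) and ran from 0 to 1 with single cows left out (ACADM without mild 1, ACADVL without mild 5). Over the same fits the wider genes lower ran from 5 (without mild 4) to 10, those higher from 3 (without mild 4) to 9, and all probe sets past the adjusted threshold from 0 to 16 (16 without severe 1, 2 without severe 3). No paired analysis was possible because the labels carry no replicate numbers that link severe with mild cows. The alternatives for the CPT2 and ECHS1 correlation were chosen after seeing the data. Dim signals limit ACADL, ACSL6 and BDH1.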
